A study of Mus musculus with 5 samples.

Results

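The 10 genes described here are WNT pathway members: the ligands Wnt4, Wnt5a, Wnt6 and Wnt11, the R-spondin Rspo1 and its receptor Lgr5, the secreted antagonists Sfrp1, Sfrp4 and Wif1, and the response gene Axin2. They were taken as a fixed list of names, and all 10 were among the 31053 genes counted in each library. The cells came from ovaries of untreated mice with the labelled genotype C57BL6/J at 2, 3, 4, 5 and 6 wk of age, the juvenile weeks in which the first follicles grow or degenerate. Ovaries were dissociated with trypsin and made into 5 libraries of single cells, 1 per age, on the 10x Genomics 3′ v3.1 kit, which counts transcripts near their 3′ ends as unique molecular identifiers (UMIs). How many mice gave each library was not given, and an age has no replicate, so no p-value is printed.

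WNT proteins are secreted, lipid-modified signals that bind Frizzled receptors. In the canonical branch they stabilise β-catenin, which enters the nucleus, joins TCF/LEF factors on DNA and switches on genes such as Axin2, itself a brake on the pathway. R-spondins bound to LGR receptors clear the ligases RNF43 and ZNRF3 that remove Frizzled from the cell surface, and so raise the response, whereas SFRP proteins and WIF1 bind WNT ligands outside the cell. In the ovary, Wnt4 and Rspo1 are known for their part in female gonad development, and Lgr5 is known as a marker of the surface epithelium.

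The genes lie on GRCm38 as follows, by the GENCODE annotation. Wnt4 (ENSMUSG00000036856) spans chromosome 4 from 137277489 to 137299726 and Rspo1 (ENSMUSG00000028871) spans chromosome 4 from 124986430 to 125009099. Wnt5a (ENSMUSG00000021994) spans chromosome 14 from 28504750 to 28527448, Wnt6 (ENSMUSG00000033227) chromosome 1 from 74771892 to 74785322, and Wnt11 (ENSMUSG00000015957) chromosome 7 from 98835112 to 98855195. Lgr5 (ENSMUSG00000020140) spans chromosome 10 from 115450311 to 115587780, Wif1 (ENSMUSG00000020218) chromosome 10 from 121033960 to 121100650, and Sfrp1 (ENSMUSG00000031548) chromosome 8 from 23411502 to 23449632. Sfrp4 (ENSMUSG00000021319) spans chromosome 13 from 19623104 to 19632994, and Axin2 (ENSMUSG00000000142) spans chromosome 11 from 108920349 to 108950783. Lgr5 is on the minus strand and the other 9 are on the plus strand. Wnt5a, Wnt6, Wnt11, Rspo1, Lgr5 and Axin2 each overlap 1 annotated gene on the opposite strand. The study's methods name the counting pipeline's defaults, under which reads are counted in the sense direction.

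Promoters of Axin2, Wnt4, Wnt6 and Wnt11 are shown, whose pooled levels were higher in primordial and primary than in antral granulosa-like cells. Rspo1 was higher there too, but its window is searched below without being shown. The windows come from the RefSeq table for GRCm38.p6 (250 bases before to 50 bases after the annotated start), which matched 6 of the 10 members. Capitals mark the TCF/LEF core motif, CTTTGA or TCAAAG, searched on both strands.
Axin2, chr11:108920099-108920398, plus strand: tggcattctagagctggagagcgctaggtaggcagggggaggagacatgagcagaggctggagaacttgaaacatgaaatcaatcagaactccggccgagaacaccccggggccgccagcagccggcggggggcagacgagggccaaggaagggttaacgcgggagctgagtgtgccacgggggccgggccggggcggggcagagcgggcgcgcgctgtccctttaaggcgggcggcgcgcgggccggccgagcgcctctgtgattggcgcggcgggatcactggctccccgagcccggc
Wnt4, chr4:137277385-137277684, plus strand: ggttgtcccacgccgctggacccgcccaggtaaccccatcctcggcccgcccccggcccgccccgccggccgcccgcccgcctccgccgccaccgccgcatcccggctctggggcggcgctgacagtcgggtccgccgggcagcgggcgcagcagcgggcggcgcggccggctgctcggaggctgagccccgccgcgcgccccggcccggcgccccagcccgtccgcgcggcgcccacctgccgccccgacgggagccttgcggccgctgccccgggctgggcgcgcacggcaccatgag
Wnt6, chr1:74771642-74771941, plus strand: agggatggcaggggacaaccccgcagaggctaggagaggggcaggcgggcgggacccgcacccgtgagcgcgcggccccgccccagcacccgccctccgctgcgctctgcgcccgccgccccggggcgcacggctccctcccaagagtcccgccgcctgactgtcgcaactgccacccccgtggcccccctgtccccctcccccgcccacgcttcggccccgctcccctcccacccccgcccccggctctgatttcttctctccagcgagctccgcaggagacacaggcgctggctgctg
Wnt11, chr7:98834862-98835161, plus strand: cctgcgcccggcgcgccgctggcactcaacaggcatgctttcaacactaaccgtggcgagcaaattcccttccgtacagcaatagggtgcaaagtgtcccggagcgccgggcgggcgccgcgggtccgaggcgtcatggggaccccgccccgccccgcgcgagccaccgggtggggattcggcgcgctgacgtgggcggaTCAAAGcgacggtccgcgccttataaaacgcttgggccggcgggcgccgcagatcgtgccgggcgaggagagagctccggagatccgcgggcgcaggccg
Wnt11 has 2 entries, of which the first is shown. The motif stood there 50 bases before the start, and these letters were in none of the other 6 member windows, those of Rspo1 and Wif1 and the second of Wnt11 included. Of all 32851 promoters of the table, 16.0% held the core motif, and 3.73% held the extended motif CTTTGAT or ATCAAAG, which contains the core and was also in the Wnt11 window. All 4 windows were rich in G and C: 70.0% for Axin2, 84.3% for Wnt4, 76.7% for Wnt6 and 71.3% for Wnt11, where the median promoter of the table had 52.7%.

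The libraries held 9471, 9253, 11077, 7779 and 10583 cells from 2 to 6 wk, 48163 in all, with 93438618 to 144609431 UMIs per library and a median of 9056 to 12424 UMIs per cell. The cells carried 47890 distinct barcodes, of which 273 occurred in more than 1 library. Clusters were named from marker genes, and the name of a class below means a marker-defined class of clusters ("X-like"). None of the WNT genes was used to make the clusters. There were 18633 granulosa-like, 14383 stromal-like, 4027 smooth muscle-like, 904 theca-like, 861 pericyte-like, 715 blood endothelial-like, 499 hematopoietic-like, 322 surface epithelial-like, 230 lymphatic endothelial-like and 93 rete ovarii-like cells, and 7496 cells stayed unnamed. Defining markers stood in their classes. Upk3b was at 1592 counts per 1000000 UMIs (CPM) in surface epithelial-like cells and 58.1 in rete ovarii-like cells, Cyp17a1 was at 2540 CPM in theca-like cells, and Inha was at 4209 CPM in granulosa-like cells and at most 689 in any other named class. A granulosa-like cluster of 2404 cells also had the oocyte genes Ooep and Zp3 among its leading genes, and a stromal-like cluster of 2646 cells had the steroidogenic genes Cyp17a1 and Cyp11a1. Of the 904 theca-like cells, 490 came from the 5 wk library, so a pooled theca-like level is mostly that library.

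A level below is the UMIs of a gene summed over the cells of a group and scaled to the group's total (CPM), pooled over the libraries unless an age is named. Intervals are exact 95% intervals that cover counting error only, and the 5 library values give the only spread measured. Levels are set side by side between groups and not between genes, except where the design's rule names the gene with the highest CPM of a role. Where classes are compared, a gene is called when its pooled ratio is past 2 and the 5 library values of both classes do not overlap. Where ages are compared, a ratio past 2 is the only criterion, and in both cases a gene needed 200 UMIs over both groups. Because droplets take up free RNA, hematopoietic-like cells are given as a background (median 6692 UMIs per cell, against 14841 in granulosa-like cells). Whether this class makes some of these genes itself was not tested. A level read as background below is thus one no higher than in these cells, and low expression there is not excluded. Shares of cells with a UMI are given as found and after every cell was thinned to 3000 UMIs.

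Wnt4, a canonical and non-canonical ligand needed for female gonad development, had its highest pooled level in surface epithelial-like cells. The level there was 399, 487, 310.1, 209 and 169 CPM at 2, 3, 4, 5 and 6 wk, or 315 CPM pooled (95% interval 297 to 335), and 76.4% of these cells had a UMI (52.4% after thinning). Rete ovarii-like cells, of which 54 and 32 came from the 2 and 3 wk libraries, followed with 240.2 CPM, at 238 and 252 CPM in those libraries. Granulosa-like cells held 65.5% of all 85438 Wnt4 UMIs. Their level was 368, 260.4, 109, 118 and 114 CPM from 2 to 6 wk, or 183 CPM pooled (182 to 185), with a UMI in 54.0% of cells (30.5% after thinning). Stromal-like cells were at 127, 127, 154, 76.1 and 91.2 CPM, or 114 CPM pooled (113 to 116). The granulosa-like to stromal-like ratio was 1.60 (1.58 to 1.63), and the library values of both classes overlapped. Hematopoietic-like cells had 55.3, 32.8, 44.8, 27.0 and 22.5 CPM, with a UMI in 10.6% of cells (5.38% after thinning). Pericyte-like cells at 65.1 CPM, theca-like cells at 52.5 CPM and smooth muscle-like cells at 44.9 CPM lay between stromal-like and hematopoietic-like cells. Neighbours in this order overlapped between libraries.

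Wnt5a, the main non-canonical ligand, was a gene of the mesenchymal classes and was close to absent from granulosa-like cells. In stromal-like cells it was at 34.9, 42.6, 37.2, 34.6 and 60.3 CPM from 2 to 6 wk, or 42.6 CPM pooled (41.6 to 43.6). Granulosa-like cells had 1.43, 0.739, 0.918, 1.32 and 2.15 CPM, or 1.36 CPM pooled. These levels lay below the 6.94 CPM of hematopoietic-like cells (4.68 to 9.90), so they are read as background. Wnt5a was thus 31.3-fold lower in granulosa-like than in stromal-like cells (28.3 to 34.6), without overlap of the library values. Theca-like cells had the highest pooled level, 57.4 CPM, but this was set by 1 library: their values were 8.0, 17.3, 29.3, 78.3 and 24.7 CPM. Without the 5 wk library the theca-like level lay below the stromal-like level, with a log2 ratio of -1.07, against 0.43 with it. Surface epithelial-like cells had 21.5 CPM, from 9.48 to 59.4 CPM over the libraries.

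Wnt6, a ligand of epithelia, was high in theca-like cells, surface epithelial-like cells and the early granulosa groups. Theca-like cells had 201, 193, 199, 244 and 169 CPM from 2 to 6 wk, or 225 CPM pooled (218 to 232), and 86.1% of them had a UMI (46.2% after thinning). Stromal-like cells had 11.3, 9.48, 14.4, 27.8 and 9.10 CPM, or 13.5 CPM pooled, close to the 11.6 CPM of hematopoietic-like cells (8.58 to 15.2). The second clustering below named 1502 steroidogenic theca cells, more than the 904 theca-like cells. Other mesenchymal classes here thus hold some of them, and their part in the stromal-like level was not tested. The theca-like to stromal-like ratio was 16.6 (15.8 to 17.5), and all theca-like libraries lay above all stromal-like ones. Surface epithelial-like cells had 95.7, 41.6, 109.9, 248 and 184 CPM. Granulosa-like cells had 175, 62.5, 21.7, 29.2 and 35.2 CPM, or 61.0 CPM pooled, which was 4.52-fold above stromal-like cells (4.33 to 4.73) and higher within each of the 5 libraries, with overlap because the 4 wk granulosa-like value lay below the 5 wk stromal-like one. Pericyte-like cells had 54.2 CPM, from 19.1 CPM at 2 wk to 79.3 CPM at 6 wk.

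Wnt11, a ligand best known from non-canonical signalling in tissue movements, was rare. It gave 1024 UMIs in all cells, of which 80.9% were in granulosa-like cells, at 8.04, 1.54, 1.27, 1.80 and 1.55 CPM. It was 5.63-fold higher there than in stromal-like cells (4.47 to 7.18), without overlap. Its pooled level of 2.71 CPM in granulosa-like cells was nevertheless no higher than the 3.93 CPM of hematopoietic-like cells (2.29 to 6.29, 17 UMIs), so granulosa-like cells as a whole cannot be read as above background.

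Rspo1 and Lgr5, a ligand and receptor pair that amplifies WNT signals, had their highest pooled levels in surface epithelial-like cells. Rspo1 was at 418, 347, 451, 375 and 352 CPM there from 2 to 6 wk, or 394 CPM pooled (373 to 415), with a UMI in 87.0% of cells (66.3% after thinning). Every other named class but the rete ovarii-like cells, at 213 CPM, had at most 5.28 CPM, and hematopoietic-like cells had 1 UMI. Lgr5 was at 133, 86.1, 183, 269 and 466 CPM in surface epithelial-like cells, or 219 CPM pooled (204 to 236), with a UMI in 64.6% of cells (43.9% after thinning). These 322 cells held 72.2% of all 1029 Lgr5 UMIs. Rete ovarii-like cells, which shared Rspo1, had 7 Lgr5 UMIs (6.07 CPM), and the other named classes had at most 0.580 CPM. Both genes were found in 184 of the 322 surface epithelial-like cells. Lgr5 had a UMI in 65.7% of cells with Rspo1 and in 57.1% of cells without it, where the latter also had fewer UMIs (median 4144 against 9158.5).

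Sfrp1, a secreted antagonist, was the mesenchymal counterpart. Stromal-like cells had 322, 222, 208, 134 and 138 CPM from 2 to 6 wk, or 214 CPM pooled (212 to 217), and smooth muscle-like cells had 295, 245, 195, 124 and 91.9 CPM. Theca-like cells had 74.6, 46.4, 156, 48.8 and 43.3 CPM. Granulosa-like cells, at 10.8 CPM, were at the level of hematopoietic-like cells (14.8 CPM, 11.4 to 18.9). Sfrp1 was 19.9-fold lower in granulosa-like than in stromal-like cells (19.2 to 20.7), and no library values overlapped. Sfrp4, a relative of Sfrp1, was highest among these classes in theca-like cells, at 27.5, 3.06, 6.35, 18.4 and 10.8 CPM. This was 15.3 CPM pooled and 8.72-fold above stromal-like cells (7.36 to 10.3), with overlapping values and theca-like cells higher within each of the 5 libraries. It had 0 UMIs in surface epithelial-like cells, which allows up to 0.885 CPM (3 UMIs). Wif1, an antagonist that binds the ligands directly, had 81 UMIs in 48163 cells, of which 47 were in stromal-like and 21 in smooth muscle-like cells, and 0 in theca-like, surface epithelial-like, hematopoietic-like and endothelial-like cells. Wif1 was 21.6-fold lower in granulosa-like than in stromal-like cells (7.90 to 82.5, 4 against 47 UMIs), and in stromal-like cells 13.3-fold higher at 5 wk than at 2 wk (3.1 to 120.1, 15 against 2 UMIs). Neither comparison had the 200 UMIs needed for a call.

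Axin2, the response gene, was highest where Rspo1 and Lgr5 were high. Surface epithelial-like cells had 101, 86.1, 56.4, 54.6 and 75.8 CPM from 2 to 6 wk, or 79.4 CPM pooled (70.2 to 89.5), with a UMI in 49.7% of cells (23.5% after thinning). Granulosa-like cells had 35.1, 12.4, 4.23, 7.23 and 7.41 CPM, and stromal-like cells had 10.9, 4.59, 4.17, 4.11 and 5.87 CPM. Hematopoietic-like cells had 7.47, 7.58, 5.43, 5.84 and 6.07 CPM. These values came from 53, 50, 84, 182 and 130 cells, so levels near them are not told apart from background. Surface epithelial-like cells thus stood above every other class with 30 cells per library at every age. Granulosa-like cells pooled over stages stood well above background at 2 wk, less so at 3 wk, and close to it from 4 wk on. The mix of stages changed: primordial and primary cells were 314 and 1365 of 3177 at 2 wk, and 82 and 412 of 2627 at 5 wk. Over the 5 libraries, Axin2 was at 21.6 to 41.5 CPM in primary and 9.58 to 42.5 CPM in primordial cells. All these point values lay above hematopoietic-like cells, but the lowest, 9.58 CPM in primordial cells at 4 wk, was close to background. Antral cells had 0.478 to 20.4 CPM and remodeling cells 0.806 to 24.9 CPM. The part of the mix in the class-level fall was not tested.

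**Figure D1:**
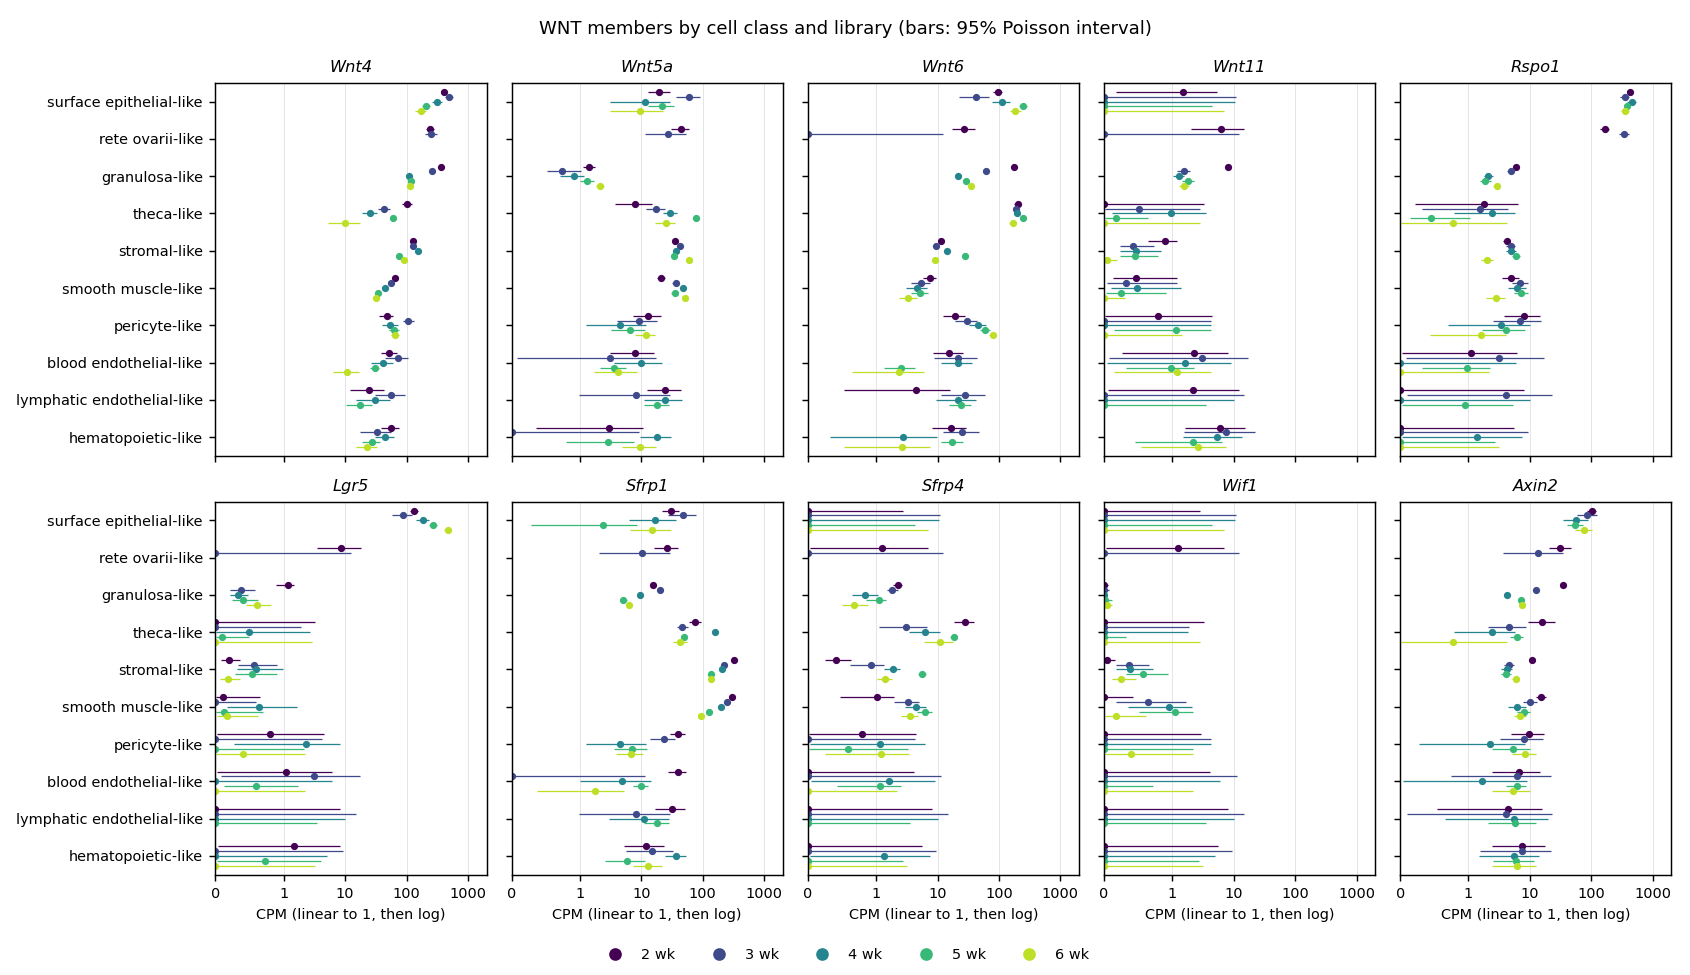
Levels of the 10 genes (CPM, linear to 1 and logarithmic above) in each cell class, with 1 point per library coloured by age and exact 95% Poisson intervals as bars; groups under 30 cells in a library are not drawn. Rspo1, Lgr5 and Axin2 lie farthest right in surface epithelial-like cells, Wnt5a and Sfrp1 in mesenchymal classes, and Wnt6 in theca-like cells, by pooled level.

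Against granulosa-like cells, surface epithelial-like cells had 4 of 9 tested members called higher and 0 lower, where 19.1% of all 13200 genes tested were called in either direction, 11.7% higher and 7.42% lower. Lgr5 was 385-fold higher (326 to 456), Rspo1 116-fold (107 to 126), Wnt5a 15.8-fold (12.2 to 20.3) and Axin2 6.35-fold (5.59 to 7.19). Wnt4 at 1.72-fold and Wnt6 at 2.35-fold overlapped between the classes, although Wnt4 was higher in surface epithelial-like cells within each of the 5 libraries. The median log2 ratio was 1.23 over the tested members, 0.34 over the other tested WNT genes and 0.02 over all tested genes. Granulosa-like against stromal-like cells gave 3 called of 9 tested members, 1 higher and 2 lower, where 25.2% of 14117 genes were called, 12.4% higher and 12.8% lower, so this count is near that of all genes. Theca-like against stromal-like cells gave 1 of 7, Wnt6, where 18.4% of 12487 genes were called, 5.46% higher and 12.9% lower. Wnt4 was 2.18-fold lower, Sfrp1 3.44-fold lower and Rspo1 4.62-fold lower in theca-like than in stromal-like cells, each with overlapping values but the same direction within each of the 5 libraries. With any 1 library left out, 2 or 3 members were called: Wnt4 was added without the 2 wk library, Sfrp4 without the 3 wk library, Rspo1 and Sfrp1 without the 4 wk library, Sfrp4 and Wnt5a without the 5 wk library, and Rspo1 without the 6 wk library.

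Granulosa-like cells were then divided by follicle stage. Primordial follicles hold resting flat granulosa cells, primary follicles a layer of cuboidal ones, and antral follicles many layers around a fluid space. Markers named 814 primordial, 4449 primary, 1510 antral and 4932 remodeling cells, 2357 cells in S phase and 2438 in G2 and mitosis, where "remodeling" is a marker list for granulosa cells of follicles that have lost or are losing their oocyte. No cluster was named secondary, and all 3 primary clusters also scored for secondary markers. The largest of them, of 1801 cells, was secondary when named by its match to the study's cluster means (r 0.894). The summed secondary marker list was highest in primary cells among the granulosa groups at each age, at 4028 CPM at 2 wk and 3455 CPM at 6 wk. The name primary below thus stands for primary and secondary cells, which were not separated. The summed primary marker list was also higher in primordial than in primary cells at each age, for example 3711 against 2696 CPM at 3 wk. Many stage markers come from gene lists the study chose on these same libraries. Among the remodeling cells, cluster 0, of 1833 cells, best matched a cluster the study scored as antral (r 0.949). Naming by the study's cluster means made it antral. It held 212 of the 303 remodeling cells at 2 wk and 339 of the 477 at 3 wk, so the remodeling levels below mix cells whose stage depends on the naming.

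Wnt4 was steady in primary cells and fell away in later groups. Primary cells had 432, 442, 478, 454 and 437 CPM from 2 to 6 wk, or 443 CPM pooled (437 to 448), with a UMI in 87.6% of cells (61.6% after thinning). Primordial cells had 143, 264, 337, 325 and 193 CPM, all below the primary values. Antral cells had 521, 68.1, 17.9, 17.8 and 13.4 CPM, so the 2 wk library alone lay above the primary cells, and the values at 4, 5 and 6 wk lay below hematopoietic-like cells of the same age and are read as background. Remodeling cells had 426, 149.7, 58.4, 61.0 and 47.1 CPM. The primary to antral ratio was 6.99 (6.65 to 7.36), with overlap through the 2 wk library. Without that library the log2 ratio was 4.30, against 2.81 with it, and the primordial to antral log2 ratio was 3.58, against 1.77.

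Wnt6 was high in primordial and primary cells alike and low in antral cells in every library. Primordial cells had 252, 138, 120.2, 114 and 159 CPM and primary cells 236, 127, 125, 153 and 161 CPM, whereas antral cells had 24.4, 2.30, 3.51, 2.08 and 3.63 CPM. Wnt6 was 38.4-fold higher in primordial than in antral cells (31.9 to 46.6) and 36.2-fold higher in primary than in antral cells (30.2 to 43.7), with no overlap in either comparison. Wnt11 was at 25.0, 4.36, 8.51, 9.05 and 11.7 CPM in primordial cells, or 15.2 CPM pooled (12.7 to 18.0). In primary cells it was at 7.46, 2.71, 5.79, 7.95 and 6.47 CPM, or 5.95 CPM pooled (5.36 to 6.60). The interval of primordial cells lies above that of hematopoietic-like cells, and the interval of primary cells overlaps it. Antral cells held 4 Wnt11 UMIs in all, and the primary to antral ratio was 36.8 (14.2 to 136).

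Rspo1 was low in every granulosa group but graded in the same direction. It was at 14.4, 14.5, 10.6, 10.2 and 14.4 CPM in primordial cells and 7.73, 8.65, 11.0, 9.01 and 12.0 CPM in primary cells. Antral cells had 15 UMIs, and the primary to antral ratio was 15.1 (9.07 to 27.2). Lgr5 had 37 UMIs in primordial cells (4.17 CPM, 2.93 to 5.74), 44 in primary cells (0.719 CPM) and 2 in antral cells. Too few UMIs were counted for Lgr5 to enter these comparisons.

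Axin2, the readout, was at 42.5, 19.4, 9.58, 32.8 and 22.6 CPM in primordial cells and 41.5, 21.6, 23.3, 31.1 and 32.4 CPM in primary cells. Antral cells had 20.4, 4.27, 0.478, 1.85 and 2.53 CPM, which from 3 wk on lay below hematopoietic-like cells by point value. Those hematopoietic-like values rest on few cells per library. The primary to antral ratio was 8.98 (7.25 to 11.2) without overlap, and the primordial to antral ratio was 8.48 (6.64 to 10.9) with overlap, while primordial cells were higher within each of the 5 libraries. Primary and primordial cells had the 2 highest Axin2 levels among the granulosa groups in all 5 libraries.

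**Figure D2:**
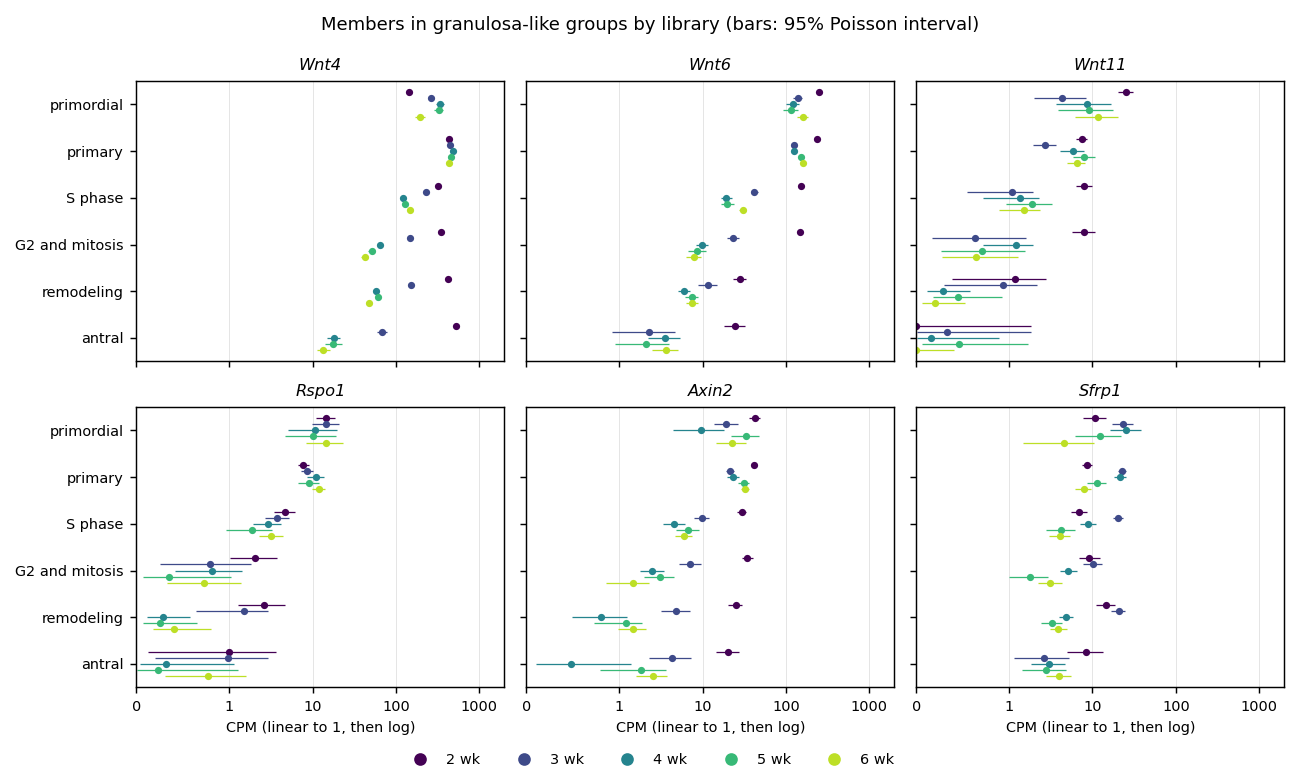
Levels of 6 genes (CPM, linear to 1 and logarithmic above) in granulosa-like groups from primordial to antral, with 1 point per library coloured by age and exact 95% Poisson intervals. Wnt6, Wnt11, Rspo1 and Axin2 lie farther right in primary than in antral cells in every library, while the 2 wk Wnt4 point of antral cells lies at 521 CPM.

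Primary against antral cells gave 4 called of 6 tested members, all higher in primary cells (Wnt6, Wnt11, Rspo1 and Axin2), where 7.28% of 10881 genes were called, 4.71% higher and 2.56% lower in primary cells. The median log2 ratio was 3.54 over the tested members, 0.27 over the other tested WNT genes and 0.06 over all tested genes. Primordial against antral cells gave 1 of 4 tested members, Wnt6, where 11.0% of 9443 genes were called, 7.87% higher and 3.16% lower in primordial cells. Wnt11 at 94.0-fold (35.9 to 350, 135 against 4 UMIs) and Rspo1 at 22.5-fold (13.1 to 41.4) also did not overlap there, but had under 200 UMIs. Remodeling against antral cells gave 0 of 4 tested members, where 2.76% of 10994 genes were called, 1.64% higher and 1.12% lower in remodeling cells. Wnt4 was 1.35-fold (1.27 to 1.42) and Wnt6 1.75-fold (1.44 to 2.15) higher in remodeling cells, and Axin2 1.24-fold (0.955 to 1.60) lower. The remodeling side of these ratios includes cluster 0, which was antral by the study's cluster means. Without the 2 wk library the log2 ratio of Wnt4 was 1.47, against 0.43 with it, and Wnt6 was called at 1.21, against 0.81. When libraries were merged without integration, 522 remodeling cells were left, in a single cluster. It held 0 cells at 2 wk and at 3 wk, 3 at 4 wk, 200 at 5 wk and 319 at 6 wk. Another cluster of 1620 cells scored as remodeling but stayed unnamed, because 1500 of its cells came from the 4 wk library. The log2 ratios were then -0.05 for Wnt4 and -1.27 for Wnt6. With low-UMI clusters named instead, the log2 ratio of Wnt4 was -0.07.

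Over age, Wnt4 differed most between the libraries in antral cells among the stage groups. Its level was 29.3-fold higher at 2 wk than at 5 wk (23.2 to 37.4, 1047 against 77 UMIs), and the share of antral cells with a UMI was 82.2% at 2 wk and 19.8% at 5 wk (63.8% and 4.94% after thinning). It was the only member with 200 UMIs over both ages, and 5.80% of 4417 genes were past 2-fold in that comparison, 2.94% higher and 2.85% lower at 2 wk. With fewer UMIs, Wnt6 was 11.7-fold (5.69 to 27.1), Axin2 11.0-fold (5.10 to 27.2), Sfrp4 11.4-fold (5.74 to 25.1) and Sfrp1 3.05-fold (1.37 to 7.0) higher at 2 wk, on 49, 41, 53 and 17 UMIs at 2 wk. Wnt5a, Wnt11 and Rspo1 had at most 5 UMIs at either age, and Lgr5 and Wif1 had 0. In its whole-ovary counts the study recorded no antral follicles before 3 wk, although it also scored antral clusters at 2 wk. The name antral thus rests on markers alone for the 129 cells at 2 wk, which differed from later ones in stage markers too. The summed level of the primary marker list in antral cells was 1813 CPM at 2 wk and 379 to 540 CPM from 3 to 6 wk, while the antral list was at 2580 CPM at 2 wk and 4583 to 9729 CPM later. Without integration of the libraries, 5 of the 2 wk cells were in the antral group. The part of this in the change of Wnt4 was not tested.

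Wnt4 and Axin2 were also higher at 2 wk in remodeling cells and in the cell-cycle group. In remodeling cells Wnt4 was 6.98-fold (6.45 to 7.55) and Axin2 20.6-fold (12.5 to 35.5) higher at 2 wk than at 5 wk. Their primary marker list was at 2046 CPM at 2 wk and 256 to 921 CPM later, and their secondary list at 2335 CPM at 2 wk and 635 to 1959 CPM later. The remodeling list itself was at 1328 CPM at 2 wk, below both of these, and at 1613, 5062, 4657 and 4218 CPM from 3 to 6 wk. In cells in G2 and mitosis Wnt4 was 6.81-fold (6.13 to 7.59), Wnt6 16.8-fold (13.2 to 21.7) and Axin2 11.2-fold (7.37 to 17.5) higher at 2 wk. The stage lists shifted there too: from 2 to 5 wk the primary list went from 2608 to 511 CPM, the secondary list from 3241 to 1656 CPM and the antral list from 1118 to 4582 CPM. The part of these shifts in the changes of the WNT genes was not tested. Within remodeling cells, cluster 0 fell from 407 CPM of Wnt4 at 2 wk to 15.5 CPM at 6 wk, and cluster 2 from 494 to 93.5 CPM.

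Primary cells did not show this. None of 6 tested members was past 2-fold between 2 and 5 wk, where 3.05% of 8951 genes were, 1.69% higher and 1.36% lower at 2 wk. Wnt4 differed by 1.05-fold (1.01 to 1.10, higher at 5 wk). Wnt6 was 1.55-fold (1.44 to 1.66) and Axin2 1.33-fold (1.13 to 1.58) higher at 2 wk. Without integration of the libraries, the primary group held 63 cells at 2 wk, against 1365 with it. A cluster of 1576 cells scored as primary there but stayed unnamed, because 1524 of its cells came from the 2 wk library. The log2 ratio of 2 wk over 5 wk then went from -0.22 to 0.98 for Rspo1, from -0.38 to 0.89 for Sfrp1 and from 0.42 to -0.26 for Axin2. Those of Wnt4, Wnt6 and Wnt11 kept their sign. In primordial cells Wnt4 was 2.27-fold higher at 5 wk than at 2 wk (1.96 to 2.63), opposite to the antral cells, whereas Wnt6 was 2.21-fold higher at 2 wk (1.80 to 2.74). The 2, 3 and 4 wk libraries were counted with Cell Ranger 3.1.0 and the 5 and 6 wk libraries with 6.0.1, so age beyond 4 wk and software version cannot be told apart.

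**Figure D3:**
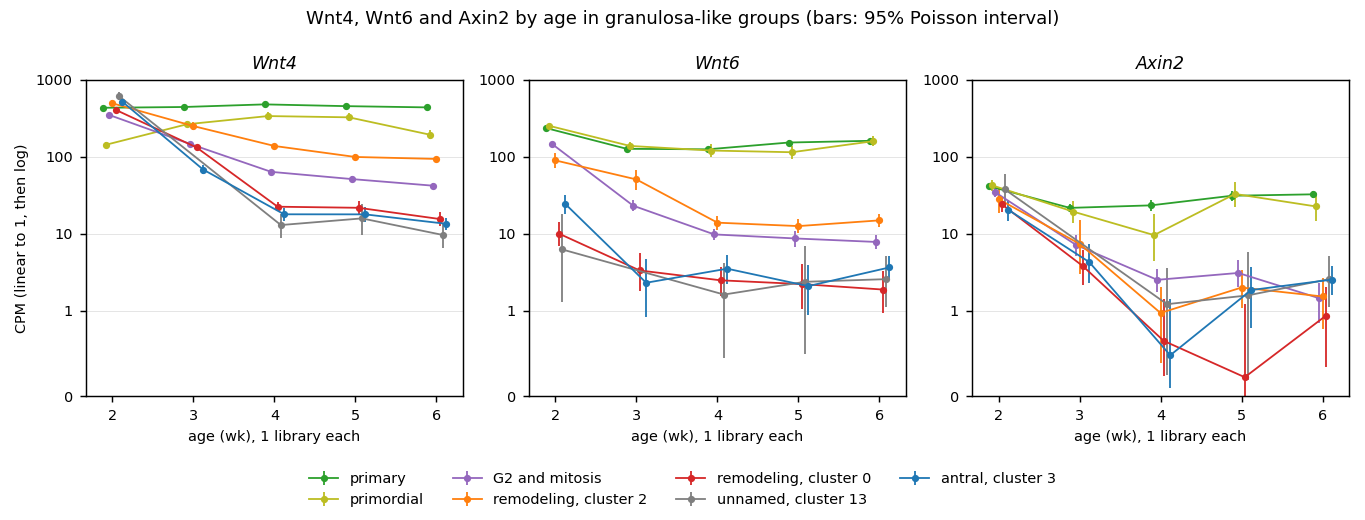
Levels of Wnt4, Wnt6 and Axin2 (CPM, linear to 1 and logarithmic above) against age in granulosa-like groups, with exact 95% Poisson intervals and 1 library per age. Remodeling clusters 0 and 2, antral cluster 3 and unnamed cluster 13 are drawn apart. Primary cells run nearly flat for Wnt4 at 432 to 478 CPM, while antral, remodeling and G2 and mitosis cells lie lower at every age after 2 wk.

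The mesenchymal cells divided into groups named by a leading marker. They were 2764 Hoxd9+, 3503 Cxcl12+, 1057 Col11a1+, 833 Col14a1+ and 1615 Cd24a+ cells, 3980 contractile cells, 2014 early theca and 1502 steroidogenic theca cells. Hoxd9+ cells led in Wnt4 and Wnt5a. Wnt4 was at 365, 312, 387, 258 and 283 CPM there, against 119, 163, 226, 92.5 and 107 CPM in Cxcl12+ cells, a 2.45-fold difference (2.36 to 2.56) without overlap. Wnt5a was at 72.5, 107, 108, 87.8 and 141 CPM in Hoxd9+ cells, 1.90-fold above Cxcl12+ cells (1.78 to 2.03). Axin2 was at 19.4, 12.6, 11.1, 14.3 and 15.3 CPM in Hoxd9+ cells, 2.68-fold above Cxcl12+ cells (2.21 to 3.25) with overlap, and higher within each of the 5 libraries. Of 5 tested members 1 was called, Wnt4, where 2.43% of 10187 genes were, 1.38% higher and 1.05% lower in Hoxd9+ cells.

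By pooled level, Col14a1+ cells led the mesenchymal groups in Rspo1, Sfrp1 and Sfrp4, and had 0 Wif1 UMIs. Of the 833 cells, 77 formed a cluster with a median of 1825 UMIs, and in the other 756 cells Rspo1 was at 61.9 CPM, Sfrp1 at 849 CPM and Sfrp4 at 19.4 CPM. Rspo1 was at 40.0, 64.1, 81.7, 80.7 and 63.6 CPM in these cells, or 61.1 CPM pooled (55.6 to 67.0), against 1.17 to 2.18 CPM in Cxcl12+ cells, a 37.9-fold difference (28.0 to 52.3). A UMI was found in 33.7% of the Col14a1+ cells (15.5% after thinning). Sfrp1 was at 1009, 888, 1021, 409.6 and 614 CPM, and 2.33-fold above Cxcl12+ cells (2.26 to 2.40) with overlap, since Cxcl12+ cells ranged from 206 to 567 CPM, and higher within each of the 5 libraries. Sfrp4 was at 0.715, 12.4, 17.6, 54.3 and 39.5 CPM, on 2 UMIs at 2 wk and 82 at 5 wk, a ratio of 75.9 (20.4 to 638). At 2 wk the Sfrp4 value lay below that of theca-like cells. Wnt6 at 17.2 CPM was 3.78-fold above Cxcl12+ cells (2.94 to 4.85). Of 6 tested members 2 were called, Rspo1 and Wnt6, where 5.52% of 9660 genes were, 3.53% higher and 1.99% lower in Col14a1+ cells.

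Among the theca groups, Wnt6 was high in steroidogenic cells alone. Steroidogenic theca cells, which make androgens, had 94.2, 112, 129, 229.7 and 77.8 CPM of Wnt6, and early theca cells had 5.32, 4.19, 7.13, 6.61 and 4.26 CPM. No value of early theca cells reached any of the steroidogenic ones, and all lay below the 11.6 CPM pooled over hematopoietic-like cells. Wnt5a in steroidogenic theca cells was at 11.9, 11.0, 19.2, 65.9 and 17.0 CPM, so the 5 wk library stood apart, with 601 of the 1502 cells.

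**Figure D4:**
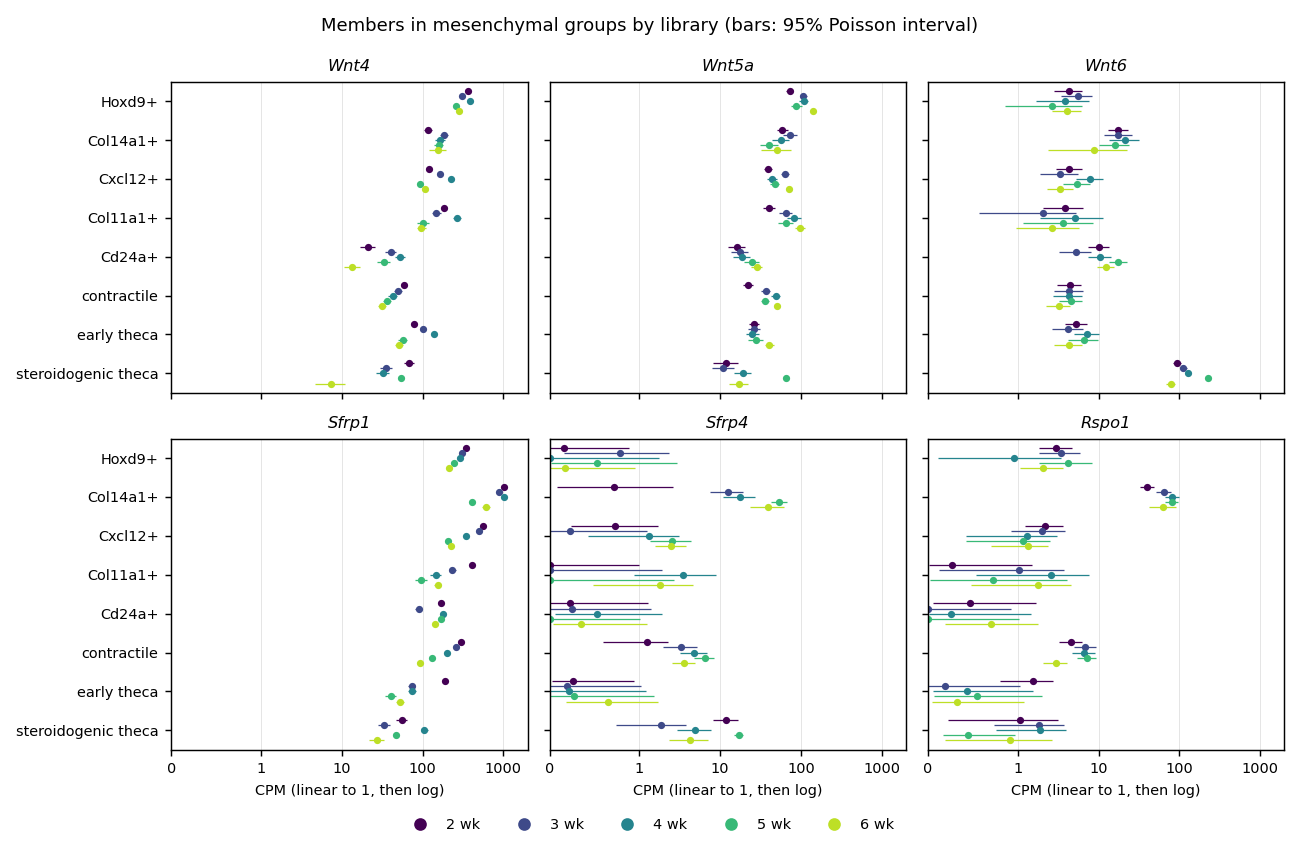
Levels of 6 genes (CPM, linear to 1 and logarithmic above) in mesenchymal groups, with 1 point per library coloured by age and exact 95% Poisson intervals. Hoxd9+ cells lie farthest right for Wnt4 and Wnt5a, Col14a1+ cells for Sfrp1 and Rspo1, and steroidogenic theca cells for Wnt6.

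With age, Sfrp1 fell in stromal-like cells, by 2.40-fold between 2 and 5 wk (2.31 to 2.49). In smooth muscle-like cells it was 3.22-fold higher at 2 than at 6 wk (2.99 to 3.46), and it was lower in each successive library. Axin2 was 2.65-fold higher in stromal-like cells at 2 wk than at 5 wk (2.15 to 3.30), although its values from 3 wk on were at background. Its 2 wk value was close to background too. Wnt6 was 2.47-fold higher at 5 wk (2.20 to 2.76), but this turned when libraries were merged without integration, where the log2 ratio of 2 wk over 5 wk was 0.61, against -1.30. The part of steroidogenic theca cells within the stromal-like class in this Wnt6 change was not tested. The merged setting left 479 stromal-like cells at 2 wk, against 3501, and the ratio of Rspo1 turned there too, from -0.51 to 1.40. Of 6 tested members 3 were past 2-fold, where 5.34% of 11095 genes were, 2.01% higher and 3.33% lower at 2 wk. Wnt5a did not move by more than counting error between these ages, at 1.01-fold (0.930 to 1.10).

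In surface epithelial-like cells the members moved in opposite directions. Lgr5 was 3.51-fold higher at 6 wk than at 2 wk (2.88 to 4.29, 246 against 176 UMIs) and rose in each library after 3 wk. Wnt4 was 2.36-fold higher at 2 wk than at 6 wk (1.89 to 2.99). Rspo1 stayed within 347 to 451 CPM, and Axin2 was 1.33-fold higher at 2 wk (0.930 to 1.95), a ratio whose interval holds 1. Wnt6 was 2.59-fold higher at 5 wk than at 2 wk (2.07 to 3.26), but was not past 2-fold between 2 and 6 wk. Between 2 and 6 wk, 2 of 4 tested members were past 2-fold, where 6.53% of 1500 genes were, 4.07% higher and 2.47% lower at 2 wk. The groups had 49 to 108 cells per library.

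**Figure D5:**
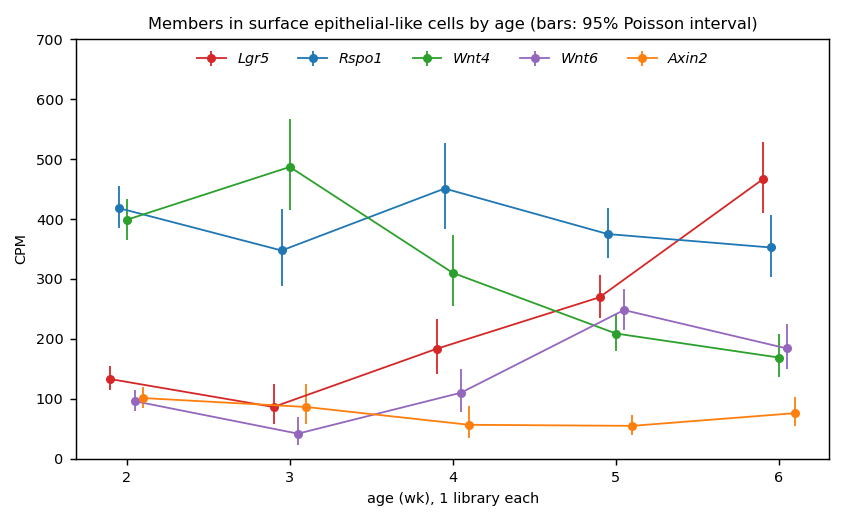
Levels of Lgr5, Rspo1, Wnt4, Wnt6 and Axin2 (CPM) against age in surface epithelial-like cells, with exact 95% Poisson intervals and 1 library per age. Lgr5 climbs to 466 CPM at 6 wk while Wnt4 drops to 169 CPM, and Rspo1 stays between 347 and 451 CPM.

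The other 71 genes of a wider WNT list show the same cells from the side of receptors and targets. Those named were chosen after their values were seen. Against granulosa-like cells, surface epithelial-like cells had 8 of 43 tested genes called higher and 0 lower, beside 11.7% and 7.42% of all genes. These included 4 of the 5 other response genes: Sp5 62.3-fold (52.5 to 73.8), Ccnd1 43.3-fold (35.5 to 52.7), Tnfrsf19 23.0-fold (20.0 to 26.3) and Nkd1 7.06-fold (6.34 to 7.84). Wls, which carries WNT ligands out of the cell, was 4.82-fold higher there (4.50 to 5.15). Rnf43, the ligase that R-spondins clear, was 5.03-fold higher (3.82 to 6.51).

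Between granulosa-like and stromal-like cells, 5 of 48 tested genes were higher in granulosa-like and 12 in stromal-like cells, beside 12.4% and 12.8% of all genes. The receptor Fzd6 was 27.3-fold (19.4 to 39.8) and Rnf43 22.0-fold (15.1 to 33.6) higher in granulosa-like cells. Stromal-like cells were higher in Ror2, a receptor for Wnt5a (43.4-fold, 37.5 to 50.4), the R-spondin Rspo3 (20.3-fold, 16.5 to 25.2) and Dkk3 (12.7-fold, 12.1 to 13.4). Theca-like cells had 1 of 42 higher than stromal-like cells, the receptor Fzd4 at 2.58-fold (2.25 to 2.93), and 12 lower, beside 5.46% and 12.9% of all genes.

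Primary against antral cells gave 5 higher and 1 lower of 34, beside 4.71% and 2.56% of all genes. The response genes Tnfrsf19 at 50.2-fold (19.5 to 185, 497 against 4 UMIs) and Nkd1 at 19.6-fold (14.3 to 27.5) were higher in primary cells, together with Rnf43 at 4.28-fold (3.09 to 6.07) and Znrf3 at 2.03-fold (1.76 to 2.34). Fzd4 was 6.37-fold lower (5.37 to 7.58). Primordial cells had Nkd1 53.5-fold above antral cells (38.9 to 75.5). Tcf7l2, a TCF factor, was 2.31-fold higher in remodeling than in antral cells (2.20 to 2.42), the only call among 35 genes there. Of all genes, 2.76% were called in that comparison, 1.64% higher and 1.12% lower, so this count is near that share. Antral cells between 2 and 5 wk had 0 of 10 tested, beside 5.80% of all genes, and primary cells 0 of 28, beside 3.05%.

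Col14a1+ cells exceeded Cxcl12+ cells in 4 of 37 tested genes (3.53% of all genes), among them Rspo3 at 36.8-fold (28.3 to 48.8) and Sfrp2 at 25.2-fold (17.1 to 38.4). Hoxd9+ cells exceeded Cxcl12+ cells in 6 of 39 genes (1.38% of all genes), among them Tnfrsf19 at 18.2-fold (13.4 to 25.3), Rspo3 at 7.35-fold (5.56 to 9.83), Wnt5b at 4.20-fold (3.53 to 5.02) and Nkd1 at 2.84-fold (2.59 to 3.12). In stromal-like cells 4 of 40 genes were past 2-fold at 2 wk against 5 wk and 0 the other way (2.01% and 3.33% of all genes), with Wnt5b at 3.23-fold (2.64 to 3.98) and Nkd1 at 3.13-fold (2.82 to 3.47).

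A rule fixed with the design also named, within each role, the gene that is not a member with the highest level and the group that held it. UMIs of different genes are not on a shared scale, so only the group is read from these values. Among ligands it was Wnt5b in pericyte-like cells at 47.4 CPM (42.5 to 52.7), among secretion genes Wls in surface epithelial-like cells at 264 CPM, and among R-spondins and their receptors Lgr4 in rete ovarii-like cells at 78.1 CPM. Among receptors it was Ryk in Cxcl12+ cells at 149 CPM, among antagonists Dkk3 in rete ovarii-like cells at 157 CPM, and among intracellular genes Ctnnb1, the gene of β-catenin, in lymphatic endothelial-like cells at 579 CPM. Among transcription factors it was Tcf7l2 in remodeling cells at 189 CPM, and among response genes Ccnd1 in lymphatic endothelial-like cells at 204 CPM.

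The genes whose pattern was most like each member were found by Pearson's r of log2(CPM + 1) over 106 profiles, each a group of cells in a library, from 22 groups and 13138 genes. Profiles of a group share cell type, and those of a library share depth, so r is a description. Lgr5 was most like Lgals2 (0.93), Msln (0.92) and Upk1b (0.92) (Msln and Upk1b were among the markers of surface epithelial-like cells). Rspo1 was most like Ildr2 (0.89), Tmem132c (0.86) and Sulf1 (0.82). Wnt4 was most like Nrbp2 (0.75), Kif1a (0.74) and Wt1 (0.71), of which Wt1 was among the markers of Hoxd9+ cells. Wnt5a was like Ogn (0.92) and Fgf2 (0.89), and Sfrp1 was most like Col4a4 (0.89), Kcne1l (0.88) and Htra3 (0.87). Wnt6 was most like Gstm6 (0.79), Cmbl (0.76) and Ano1 (0.69), and Wnt11 was most like Gatm (0.77), Cdh12 (0.75) and Hpcal1 (0.71). Gatm was among the markers of primary cells. Axin2 was most like Igfbp5 (0.83), Emx2os (0.79) and Dcaf12l1 (0.76), and Sfrp4 reached no more than 0.59, with Inmt. Among the members, r was 0.79 for Wnt5a and Sfrp1, 0.71 for Rspo1 and Lgr5, and 0.68 for both Wnt4 and Axin2 and Rspo1 and Axin2.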

How the data were processed

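Ovarian cells of untreated mice at 5 ages were counted in 5 libraries, 1 per age, which is also how they were grouped. The authors made the deposited files with Cell Ranger, and these hold raw UMI counts per gene and cell for barcodes called cells, aligned to mm10. Per the file headers, versions 3.1.0 (2, 3 and 4 wk) and 6.0.1 (5 and 6 wk) were used. All deposited cells were kept. Doublets were called with Scrublet in scanpy 1.11.5 (162 to 555 per library) and left out in an alternative. Libraries were integrated and clustered with Seurat 5.3.0 in R 4.3.3 at resolution 1, with the WNT genes left out of the variable genes. Clusters were named when at least 3 fixed markers were detected in 10% of cells and were 1.5 times higher than elsewhere. At the first level, clusters with a median UMI count under 0.333 of their library's stayed unnamed. At both levels, so did clusters with more than 0.9 of their cells from a single library. Clusters in which called doublets reached 0.5 of the cells at the first level, or 0.25 at the second, stayed unnamed too. These held 772 cells at the first level, and 753 granulosa-like and 448 mesenchymal cells at the second.

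UMIs were summed per group and library and scaled to CPM. Levels carry exact Poisson intervals, ratios exact conditional binomial intervals and shares Clopper-Pearson intervals, all at 95% and for counting error only, since PCR and capture are not covered. Ratios need at least 200 UMIs over both groups, and profiles for Pearson's r at least 30 cells. For r, genes with 500 or more UMIs were used, and the 3 highest per member were named, except 1 that is not reported here and those of Sfrp4 and Wif1, of which at most the highest is given. From the wider list, the gene with the highest level in each role was named. Computation used Python 3.11.15, numpy 2.4.6, pandas 2.3.3 and scipy 1.17.1. Scripts were tested on simulated counts.

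The members, lists and comparisons were chosen with earlier results of these data known. Naming limits were set after the clusters were seen, many stage and mesenchymal markers come from lists the study chose on these libraries, and the comparisons of surface epithelial-like with granulosa-like, primary with antral, Col14a1+ and Hoxd9+ with Cxcl12+ cells, and of ages in primary and surface epithelial-like cells were added after the data were seen. Alternatives covered integration, resolution, variable genes, doublets, cell filters, scaling, UMI minimum and fold.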

Additional observations from a re-analysis of the deposited data

Results flagged for a closer look

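For each gene, the group with the largest rise and the group with the largest fall between 2 and 5 wk were picked, where both were past 2-fold. This gave pairs of groups with opposite age changes for 5 genes. The pairs are extremes chosen from many groups, and with 1 library per age none of these differences was tested. Wnt4 was 2.27-fold higher at 5 wk than at 2 wk in primordial granulosa-like cells and 29.3-fold higher at 2 wk than at 5 wk in antral ones. Wnt6 was 3.12-fold higher at 5 wk in pericyte-like cells and 16.8-fold higher at 2 wk in granulosa-like cells in G2 and mitosis. In antral cells and in cells in G2 and mitosis the stage markers shifted too between 2 and 5 wk. The primary marker list went from 1813 to 464 CPM in the former and from 2608 to 511 CPM in the latter. The part of this in the folds of these groups was not tested. Rspo1 was 2.02-fold higher at 5 wk in Col14a1+ mesenchymal cells and 3.11-fold higher at 2 wk in granulosa-like cells. Lgr5 was 2.03-fold higher at 5 wk in surface epithelial-like cells and 2.91-fold higher at 2 wk in granulosa-like cells, where it had 174 UMIs in all. Granulosa-like cells had 0.324 to 1.16 CPM of Lgr5 over the libraries and hematopoietic-like cells 0 to 1.49 CPM. The granulosa-like change is thus not told apart from background. For Rspo1 and Lgr5 the granulosa-like value pools stages whose mix changed. Primordial and primary cells were 314 and 1365 of 3177 cells at 2 wk, and 82 and 412 of 2627 at 5 wk. In primary cells alone the Rspo1 log2 ratio of 2 wk over 5 wk was -0.22. The part of the mix in these folds was not tested. Sfrp4 was 75.9-fold higher at 5 wk in Col14a1+ mesenchymal cells, on 2 UMIs at 2 wk, and 11.4-fold higher at 2 wk in antral granulosa-like cells.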

How the results depend on the processing

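Over the 6 comparisons set out first, 84 of 104 alternative counts of called members stayed within 1.5 times the count reported, and 20 moved. In antral cells between 2 and 5 wk (1 called), merging without integration gave 0, with 5 cells left at 2 wk, and no UMI minimum gave 5. Primordial against antral cells (1) gave 2 when merged, 0 at resolution 1.5, 5 with no minimum, and 1 to 2 with a library left out, the 2 without the 2 wk library. Remodeling against antral cells (0) gave 1 with no minimum and 0 to 1 with a library left out, the 1 being Wnt6 without the 2 wk library. Stromal-like cells between 2 and 5 wk (3) gave 6 with no minimum and 0 at a fold of 3. Theca-like against stromal-like cells (1) gave 2 when merged, at resolution 0.6, at resolution 1.5, with WNT genes kept and with each cell weighted equally, and 2 to 3 with a library left out. One called value turned: Wnt6 in stromal-like cells at 2 wk against 5 wk had a log2 ratio of -1.30 and, merged, of 0.61, with 479 cells left at 2 wk. The cause was not tested. Over 67 ratios, 35 of 987 alternatives changed sign, in 18 ratios, Wnt5a in theca-like cells among them. Remodeling against antral cells turned for Wnt4 (-0.05) and Wnt6 (-1.27) when merged, values that were not called. The merged remodeling group held 0 cells from the 2 wk and 3 wk libraries. Wnt4 also turned there (-0.07) with low-UMI clusters named. The log2 ratio of Wnt4 in antral cells at 2 wk against 5 wk stayed between 4.59 and 5.44. Leaving out a library, naming low-UMI clusters and naming by the study's cluster means were chosen after seeing the data. No paired analysis was possible because each age had 1 library, so ages share no replicate number. Classes were compared within the same libraries, without a test, and directions within libraries are given beside the ratios. Groups of under 100 cells limit the depth of the rarest genes.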
